A study of Mus musculus with 18 samples.

Results

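The collagen and matrix genes described here are the protein-coding genes of the count table whose symbol has the form of a collagen chain (Col, a type number, a, a chain number), together with Fn1, Dcn, Lum, Dpt, Postn, Sparc, Bgn and Ogn. They come to 51 of the 37310 genes in the table, and 43 of them passed the filter on low counts, as did 15433 genes in all. RNA was sequenced from cortical neurons of mice, cultured for 7 days and then treated for 24 h. Read counts were analysed for 4 groups of 3 libraries: Fmr1 knockout (KO) neurons with JQ1, wild-type (WT) neurons with JQ1, KO neurons with DMSO and WT neurons with DMSO. Fmr1 encodes FMRP, an RNA-binding protein that represses translation and whose loss causes fragile X syndrome. JQ1 displaces the BET bromodomain proteins from acetylated chromatin, and DMSO is its vehicle. A further 6 libraries from neurons given THZ1, which inhibits CDK7, were not used here. The labels give no strain, age or sex of the mice and do not say whether replicates came from separate cultures or animals, so p-values measure only the spread between these libraries, which may be technical.

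Collagens are secreted triple-helical proteins, and each type plays its own part in the extracellular matrix. Fibrillar types I, II, III, V and XI form the cables of connective tissue, type IV forms the network of basement membranes, type VI forms beaded filaments, and the fibril-associated types decorate fibril surfaces. Fibronectin (Fn1) is an adhesive glycoprotein bound by integrins, SPARC is a collagen-binding matricellular protein, and decorin, lumican, biglycan and osteoglycin (Dcn, Lum, Bgn, Ogn) are small leucine-rich proteoglycans. In brain, the fibrillar types I and III are known mainly from meningeal and perivascular fibroblasts, type IV chains from vascular cells, and SPARC from glia and endothelium.

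Library totals ran from 21643592 to 134110850 gene counts, both extremes being WT JQ1 libraries. Fmr1 lay between 21.5 and 34.6 CPM (reads of a gene relative to the TMM-scaled library total) in the KO libraries and between 119 and 154 CPM in the WT libraries, so each library matched its genotype label. The KO libraries of replicate 3 stood apart in both treatments, with Xist at 4.34 CPM in JQ1 and 4.29 CPM in DMSO against at least 231 CPM in each of the other libraries. The Y-linked gene Ddx3y had 76.2 CPM in JQ1 and 54.5 CPM in DMSO there, against 28.1 to 46.1 CPM in the others. The KO and WT groups may thus differ in sex make-up. Counts of called members without these libraries are given beside the results.

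Markers of fibroblasts were split. Of a list of 26, 16 passed the filter on low counts. Foxc2, Foxd1, Slc6a13, Slc6a20a, Slc47a1 and Aldh1a2 had at most 5 reads in any library. Others had clear counts in DMSO: Igfbp5 had 216 to 235 CPM in KO and 182 to 209 CPM in WT libraries, Pdgfra had 18.1 to 36.2 CPM in KO and 11.4 to 34.2 CPM in WT, and Fbln1 had at least 9.03 CPM in KO and at least 10.7 CPM in WT. Islr had 4.18 to 4.73 CPM in KO and 4.9 to 6.35 CPM in WT DMSO libraries, and Prrx1 had 1.67 to 2.45 CPM in KO and 2.46 to 3.52 CPM in WT. Of 12 endothelial markers 4 passed the filter: Cdh5, Cldn5, Tie1, Emcn and Robo4 had at most 6 reads, whereas Egfl7 had 2.58 to 2.89 CPM in KO and 1.82 to 2.2 CPM in WT DMSO libraries. Of 11 pericyte and smooth muscle markers 7 passed: Kcnj8, Abcc9 and Des had at most 6 reads, whereas Cspg4 had 8.56 to 11.1 CPM in KO and 5.95 to 10.5 CPM in WT DMSO libraries, and Rgs5 had 2.04 to 2.18 CPM in KO and 1.93 to 2.13 CPM in WT. Pdgfra and Cspg4 are also known from oligodendrocyte precursors. The collagens typical of fibroblasts were low too: Col1a1, Col1a2 and Col3a1 together summed to 0.583 to 1.79 CPM in KO JQ1 libraries, 0.461 to 0.56 CPM in WT JQ1 libraries, 1.41 to 2.89 CPM in KO DMSO libraries and 0.615 to 1.1 CPM in WT DMSO libraries. Since part of the fibroblast markers were near 0 and part were not, the cells that carry these transcripts were not identified, and the genes are called collagen and matrix genes here. In bulk samples fewer cells of a type and less RNA per cell cannot be told apart.

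Most of the reads of the group came from a few genes. Sparc took 17.3% to 26.3% of the summed CPM of the members in a library, Fn1 9.69% to 20.3% and Col4a2 9.04% to 17.4%. The sum over the members had its lowest, median and highest value at 192, 193 and 203 CPM in KO JQ1 libraries, 188, 190 and 211 CPM in WT JQ1 libraries, 301, 319 and 320 CPM in KO DMSO libraries, and 307, 310 and 341 CPM in WT DMSO libraries. Every JQ1 library thus lay below every DMSO library, while KO and WT overlapped within each treatment.

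Levels of different genes were compared per kilobase of annotated exon. In DMSO, Sparc led in both genotypes, at 17.8 ± 0.369 CPM per kb in KO libraries and 15.4 ± 1.27 CPM per kb in WT libraries (SD, n = 3 each). In KO DMSO libraries Fn1 (4.98 ± 0.491), Col4a2 (4.88 ± 0.191) and Col23a1 (4.03 ± 0.283 CPM per kb) came next, of which Fn1 and Col4a2 overlapped. In WT DMSO libraries Dcn (4.79 ± 0.686), Fn1 (4.71 ± 0.803) and Col4a2 (4.61 ± 0.0578 CPM per kb) came next and overlapped one another, so their order is not resolved. Dcn was thus level with Fn1 in WT DMSO libraries, but in KO DMSO libraries it stood below Col4a1, at 1.87 ± 0.479 against 2.65 ± 0.272 CPM per kb for Col4a1. With JQ1, Sparc still led, at 13.1 ± 0.55 CPM per kb in KO libraries and 10.8 ± 0.633 in WT libraries. Col4a2 was second there, at 4.85 ± 0.44 CPM per kb in KO JQ1 libraries and 4.59 ± 0.303 in WT JQ1 libraries. The plot of levels in each library shows the genes with the most reads beside 3 that fell steeply.

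**Figure D1:**
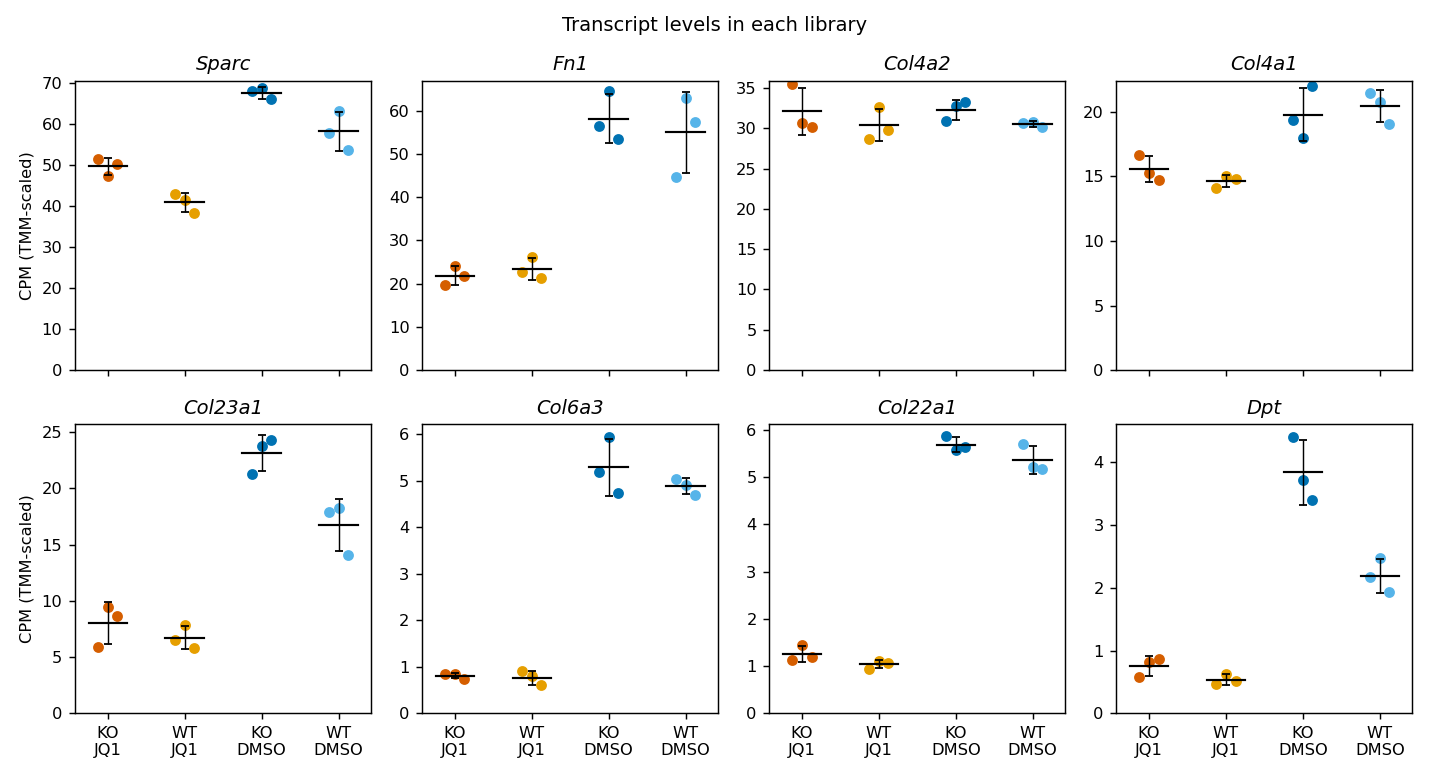
Level of 8 collagen and matrix genes in each library, in TMM-scaled CPM on linear axes that start at 0, for KO JQ1, WT JQ1, KO DMSO and WT DMSO; points are libraries, lines are means and bars are SD (n = 3). Fn1, Col23a1, Col6a3, Col22a1 and Dpt lie lower in every JQ1 library than in any DMSO library, whereas Col4a2 lies between 28.7 and 35.5 CPM throughout.

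JQ1 lowered most of the collagen and matrix genes that were tested, in both genotypes. In KO neurons 31 of 43 fell and 1 rose with JQ1 relative to DMSO, and in WT neurons 31 fell and 1 rose (edgeR quasi-likelihood test, Benjamini-Hochberg adjusted p under 0.05 over the 15433 genes). Among the 15433 genes 29.4% fell and 27.7% rose in KO neurons (57.1% in either direction), and 29.3% fell and 25.9% rose in WT neurons (55.1% in either direction). The median log2 change of the 43 members was -1.27 in each genotype, beside 0.00 for the 15433 genes in KO and -0.00 in WT. A decrease of more than 2-fold was found for 25 members in each genotype, against 10.3% of genes in KO and 10.4% in WT. A decrease of more than 4-fold was found for 10 members in KO and 13 in WT, against 2.92% of genes in each. Members that passed the filter only through their DMSO level had to be lower in JQ1, so the fit was also made with no filter, on 51 members. There 36 fell and 2 rose in KO, and 34 fell and 2 rose in WT (Col7a1 and Col11a2 in both), beside 20.1% of genes lower and 15.6% higher in KO and 19.8% lower and 15.1% higher in WT.

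In all, 28 members fell in both genotypes. Col1a1, Col1a2 and Col28a1 passed only in KO, and Dcn, Bgn and Col25a1 only in WT. These 6 are not shown to differ by genotype, since no member passed the test of the difference between the responses (below). The replicate number was also used as a block, shared by both genotypes. With it, Dcn (-0.43, adjusted p = 0.00298), Col3a1 (-0.88, adjusted p = 0.0138) and Col25a1 (-0.19, adjusted p = 0.0291) passed as lower in KO as well and Col6a4 did not. That fit gave 33 lower members and 1 higher in KO, beside 30.0% of genes lower and 28.3% higher. A block by culture (1 level per genotype and replicate number) pairs the JQ1 and DMSO libraries of each number within a genotype. It was chosen after seeing the data. The KO adjusted p there was 5.83e-05 for Dcn, 0.00419 for Col3a1 and 0.019 for Col25a1. Without the KO libraries of replicate 3, 27 members fell and 2 rose (Col7a1 and Col11a2) in KO, beside 25.7% of genes lower and 25.0% higher, and 31 fell and 1 rose in WT, beside 30.0% lower and 27.5% higher.

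Spike-in scaling, which shifts the median log2 change of the 15433 genes by 0.06 in KO and -0.63 in WT, gave 21 lower members and 1 higher in KO (8.51% of genes lower, 1.33% higher). In WT it gave 35 lower and 0 higher (37.7% of genes lower, 0.259% higher). Under it the KO calls of Sparc, Col4a1, Col4a5, Col6a1, Col6a4, Col9a1, Col9a3, Col1a1, Col1a2 and Col2a1 were lost, with adjusted p from 0.055 for Col2a1 to 0.741 for Col4a1.

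**Figure D2:**
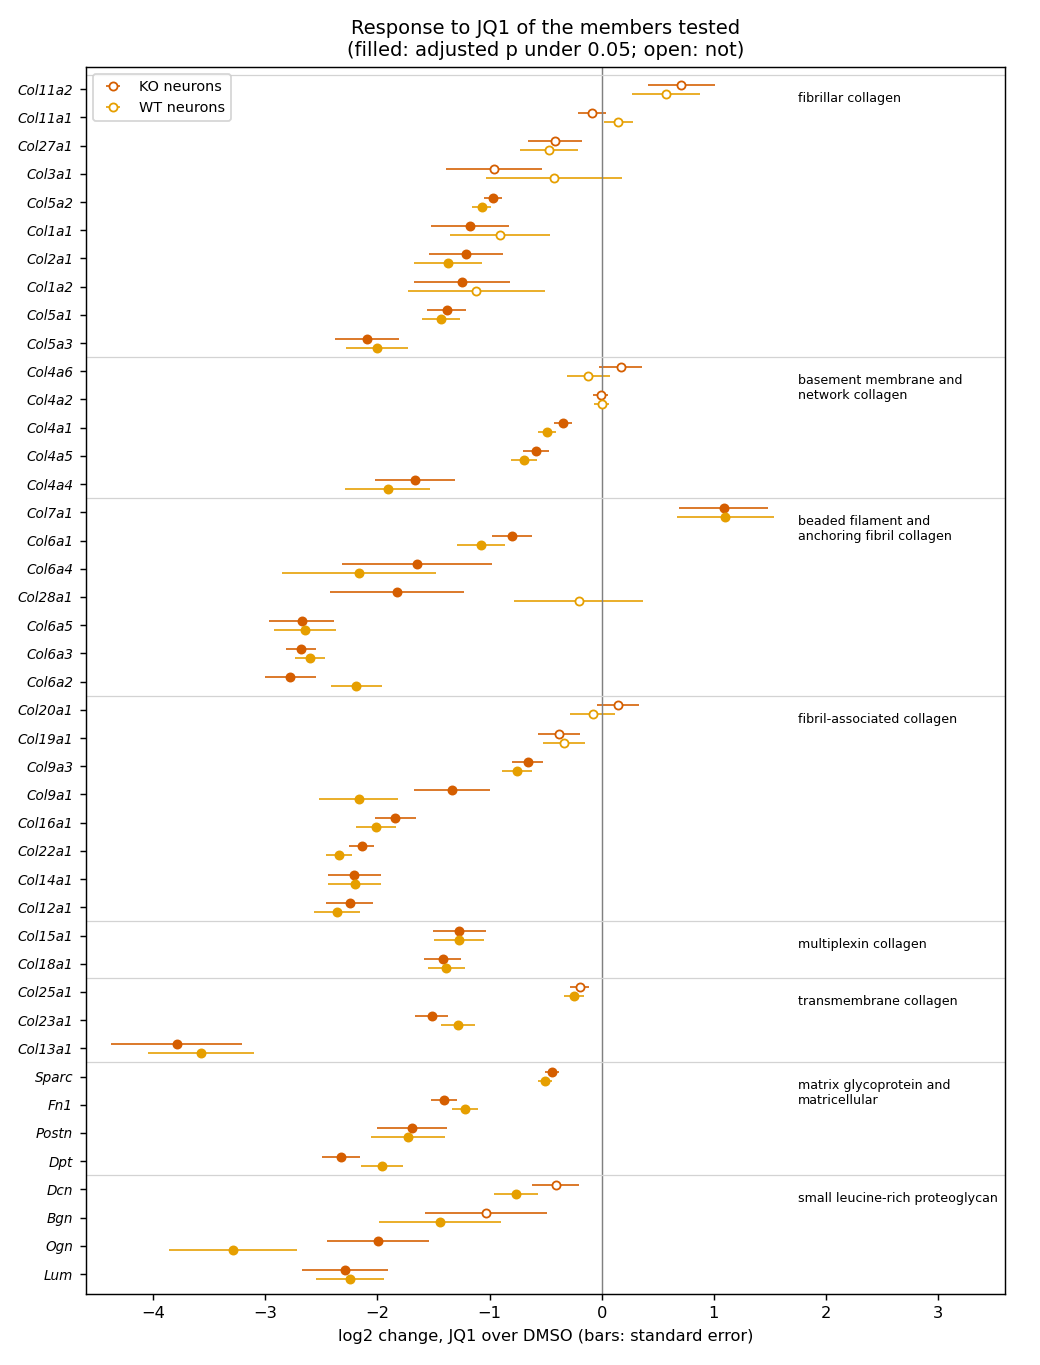
Log2 change, JQ1 over DMSO, of the 43 members tested, ordered by class, with KO neurons above WT neurons for each gene; bars are standard errors, filled points passed an adjusted p under 0.05 and open points did not. Most points lie left of 0 in both genotypes, Col7a1 (filled) and Col11a2 (open) lie to the right in both, and Col4a2 lies at 0.

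The beaded filament collagens Col6a2, Col6a3 and Col6a5 gave the steepest decreases in KO, and Col6a5 and Col6a3 in WT, among members averaging over 1 CPM in DMSO. Col6a3 had 0.844, 0.848 and 0.748 CPM in KO JQ1 libraries against 5.18, 5.94 and 4.73 CPM in KO DMSO libraries. In WT it had 0.904, 0.8 and 0.607 CPM in JQ1 libraries against 5.04, 4.9 and 4.7 CPM in DMSO libraries. No JQ1 library came near a DMSO library. The log2 change was -2.69 in KO (SE 0.134, adjusted p = 3.66e-09) and -2.60 in WT (SE 0.136, adjusted p = 5.44e-09). Col6a2 and Col6a1 encode the chains that join Col6a3 in type VI collagen. Col6a2 fell by 2.78 on the log2 scale in KO and fell by 2.19 in WT, and Col6a1 fell by 0.80 in KO and fell by 1.08 in WT. These 3 chains of the classic heterotrimer thus fell by unequal amounts. Col6a5, an alternative chain, fell by 2.67 in KO and fell by 2.65 in WT. Col6a4 fell by 1.65 in KO (adjusted p = 0.0474) and fell by 2.16 in WT (adjusted p = 0.0155) from at most 0.342 CPM. Its KO call was lost with the replicate number as a block (adjusted p = 0.0572), with DESeq2 (0.107), with limma-voom (0.054) and without both KO libraries of replicate 3 (0.163). It was also lost when KO DMSO replicate 2 (0.1), KO JQ1 replicate 2 (0.303) or KO JQ1 replicate 3 (0.0648) was left out, and its WT call when WT DMSO replicate 2 (0.1), WT JQ1 replicate 1 (0.0517) or WT JQ1 replicate 2 (0.0904) was.

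Col7a1, the anchoring fibril collagen of skin, was the sole member called higher among the 43 tested in the main fit (1 mean per group). It had 4.54, 1.62 and 2.42 CPM in KO JQ1 libraries against 1.09, 0.913 and 1.91 CPM in KO DMSO libraries, and 1.87, 3.04 and 2.05 CPM in WT JQ1 libraries against 1.23, 1.66 and 0.495 CPM in WT DMSO libraries. The groups overlapped in KO and did not overlap in WT. The log2 change was 1.09 in KO (SE 0.397, adjusted p = 0.0296) and 1.10 in WT (SE 0.432, adjusted p = 0.0426). With DESeq2 the adjusted p was 0.0545 in KO and 0.0815 in WT. With limma-voom it was 0.0564 in KO, and with spike-in scaling it was 0.323 in WT. With the replicate number as a block the WT value was 1.12 (adjusted p = 0.054). Without KO JQ1 replicate 1 the KO value was 0.59 (adjusted p = 0.193), and the KO call was also lost without KO DMSO replicate 1 (0.0905) or replicate 2 (0.115). The WT call was lost without WT DMSO replicate 1 (0.0736) or replicate 3 (0.161), and without WT JQ1 replicate 2 (0.228) or replicate 3 (0.0509). Col28a1, a further beaded chain, had at most 0.273 CPM and fell by 1.82 in KO (adjusted p = 0.0173; 0.0696 without KO JQ1 replicate 2), and its log2 change in WT was -0.21 (adjusted p = 0.785).

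The fibril-associated collagens fell in 6 of 8 cases in each genotype. Col22a1, a collagen of tissue junctions, had 1.13, 1.44 and 1.2 CPM in KO JQ1 libraries against 5.87, 5.57 and 5.63 CPM in KO DMSO libraries, and 0.942, 1.11 and 1.07 CPM in WT JQ1 libraries against 5.71, 5.21 and 5.17 CPM in WT DMSO libraries. The groups were well apart in both genotypes. Its log2 change was -2.14 in KO (SE 0.112, adjusted p = 5.27e-09) and -2.34 in WT (SE 0.117, adjusted p = 3.9e-09), the smallest adjusted p of any member in WT. Col12a1 fell by 2.25 in KO and fell by 2.36 in WT, Col14a1 was at -2.20 in each, and Col16a1 was at -1.84 in KO and -2.01 in WT. The type IX chains Col9a1 (-1.33 in KO, -2.17 in WT) and Col9a3 (-0.66 in KO, -0.76 in WT) fell as well. Col19a1 (-0.38 in KO, -0.33 in WT) and Col20a1 (0.15 in KO, -0.08 in WT) did not pass.

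Among the fibrillar collagens, 6 of 10 fell in KO and 4 of 10 in WT. Col5a2 encodes a chain of type V collagen, which nucleates type I fibrils. It had 5.73, 4.77 and 4.76 CPM in KO JQ1 libraries against 9.83, 9.58 and 10.3 CPM in KO DMSO libraries, and 4.96, 4.83 and 5.37 CPM in WT JQ1 libraries against 10.6, 10.7 and 10.2 CPM in WT DMSO libraries. The groups did not overlap in either genotype. Its log2 change was -0.97 in KO (SE 0.0836, adjusted p = 3.83e-07) and -1.07 in WT (SE 0.0852, adjusted p = 2.16e-07). The partner chains Col5a1 (-1.38 in KO, -1.43 in WT) and Col5a3 (-2.09 in KO, -2.0 in WT) fell too, as did Col2a1, the collagen of cartilage (-1.21 in KO, -1.37 in WT). The KO value of Col2a1 was -1.05 without both KO libraries of replicate 3 (adjusted p = 0.0515).

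The low type I and III chains were less certain. Col1a1 had 0.528, 0.146 and 0.269 CPM in KO JQ1 libraries against 0.709, 0.572 and 0.644 CPM in KO DMSO libraries, and 0.115, 0.185 and 0.233 CPM in WT JQ1 libraries against 0.264, 0.263 and 0.44 CPM in WT DMSO libraries, without overlap in either genotype. It fell by 1.17 in KO (adjusted p = 0.0107; 0.102 without KO JQ1 replicate 2 and 0.0517 without both KO libraries of replicate 3), and its log2 change in WT was -0.91 (adjusted p = 0.1). Col1a2 fell by 1.25 in KO (adjusted p = 0.0221), a call lost without KO DMSO replicate 1 (0.0751) or replicate 3 (0.0719) and without KO JQ1 replicate 2 (0.136) or replicate 3 (0.0744), or both KO libraries of replicate 3 (0.176), and its log2 change in WT was -1.12 (adjusted p = 0.135). Its levels were 0.528, 0.199 and 0.179 CPM in KO JQ1 libraries against 0.854, 0.356 and 0.865 CPM in KO DMSO libraries, which overlap, and 0.135, 0.131 and 0.0467 CPM in WT JQ1 libraries against 0.117, 0.342 and 0.33 CPM in WT DMSO libraries, which overlap as well. Col3a1 did not pass in KO (-0.96, adjusted p = 0.0682) or in WT (-0.43, adjusted p = 0.573). The type XI chains, which are known from cartilage and the inner ear, did not pass either: Col11a1 was at -0.09 in KO and 0.15 in WT, and Col11a2 was at 0.71 in KO (adjusted p = 0.0557) and 0.57 in WT (adjusted p = 0.124). Col27a1 was at -0.42 in KO and -0.47 in WT. With the block by culture, Col11a2 passed as higher in KO (0.73, adjusted p = 0.00923) and in WT (0.55, adjusted p = 0.0469). Without both KO libraries of replicate 3 it passed in KO (1.2, adjusted p = 0.00799). Col27a1 passed as lower in WT with the block by culture (-0.54, adjusted p = 0.0338).

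The pair of chains that make up the common type IV collagen of basement membranes did not move alike. Col4a2 had 35.5, 30.6 and 30.2 CPM in KO JQ1 libraries against 30.9, 32.7 and 33.3 CPM in KO DMSO libraries, and 28.7, 32.6 and 29.8 CPM in WT JQ1 libraries against 30.6, 30.8 and 30.1 CPM in WT DMSO libraries. The groups overlapped in both genotypes, with a log2 change of -0.01 in KO (SE 0.0667, adjusted p = 0.909) and -0.00 in WT (SE 0.0681, adjusted p = 0.989). Col4a1 had 16.7, 15.3 and 14.7 CPM in KO JQ1 libraries against 19.4, 18.0 and 22.0 CPM in KO DMSO libraries, and 14.1, 15.0 and 14.8 CPM in WT JQ1 libraries against 21.5, 20.8 and 19.1 CPM in WT DMSO libraries. It fell by 0.34 in KO (SE 0.0788, adjusted p = 0.00196) and fell by 0.48 in WT (SE 0.0805, adjusted p = 0.000161), with no overlap of groups in either genotype.

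The count of Col4a2 over that of Col4a1 does not depend on library scaling. This ratio was 2.12, 1.99 and 2.05 in KO JQ1 libraries against 1.59, 1.82 and 1.52 in KO DMSO libraries, and 2.04, 2.17 and 2.02 in WT JQ1 libraries against 1.43, 1.48 and 1.58 in WT DMSO libraries. The ratio was higher in each JQ1 library than in any DMSO library of its genotype. An exact two-sided permutation test gave p = 0.1 in each genotype, the smallest value that 3 libraries against 3 allow, and the ratio was chosen after the levels had been seen. The genes lie head to head on chromosome 8 on opposite strands, and their annotated exons overlap by 22 bases, so a small part of their reads could be shared if counting ignored strand. Col4a5, a chain of kidney and lens basement membranes, fell by 0.59 in KO and fell by 0.69 in WT. Col4a4 fell by 1.67 in KO and fell by 1.91 in WT from at most 0.633 CPM. Col4a6 did not pass, at 0.17 in KO and -0.12 in WT.

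Both multiplexins, basement membrane collagens that carry glycosaminoglycan chains, fell. Col18a1, the source of the fragment endostatin, had 1.74, 1.28 and 1.2 CPM in KO JQ1 libraries against 4.63, 3.28 and 3.31 CPM in KO DMSO libraries, and its log2 change was -1.42 in KO and -1.38 in WT. Col15a1 fell by 1.27 in each genotype.

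Of the transmembrane collagens, Col23a1 had 5.91, 9.44 and 8.67 CPM in KO JQ1 libraries against 21.3, 23.8 and 24.3 CPM in KO DMSO libraries, and 6.5, 7.82 and 5.84 CPM in WT JQ1 libraries against 17.9, 18.3 and 14.1 CPM in WT DMSO libraries. All JQ1 libraries lay below all DMSO libraries. The log2 change was -1.51 in KO (SE 0.147, adjusted p = 1.16e-06) and -1.28 in WT (SE 0.152, adjusted p = 8.34e-06). Col13a1 had 0.0264, 0.0132 and 0 CPM in KO JQ1 libraries against 0.236, 0.186 and 0.239 CPM in KO DMSO libraries. Its fitted log2 change of -3.79 in KO and -3.58 in WT rests on at most a few reads in JQ1 and depends on the prior count. Col25a1, the neuronal collagen known from amyloid plaques, had 11.3, 12.1 and 11.8 CPM in KO JQ1 libraries against 12.5, 13.4 and 14.5 CPM in KO DMSO libraries and moved least in this class. Its log2 change in KO was -0.20 (adjusted p = 0.0642), and it fell by 0.25 in WT (adjusted p = 0.0251). That call was lost without WT DMSO replicate 3 (0.179), WT JQ1 replicate 1 (0.122) or WT JQ1 replicate 2 (0.0791).

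All 4 glycoproteins and matricellular genes fell in both genotypes. Fn1 had 19.7, 24.1 and 21.7 CPM in KO JQ1 libraries against 56.4, 64.6 and 53.5 CPM in KO DMSO libraries, and 22.7, 26.1 and 21.3 CPM in WT JQ1 libraries against 44.6, 62.9 and 57.4 CPM in WT DMSO libraries. Its log2 change was -1.41 in KO (SE 0.118, adjusted p = 3.04e-07) and -1.22 in WT (SE 0.119, adjusted p = 1.31e-06), with no overlap of groups. An annotated gene on the other strand, Apol7d, overlaps the exons of Fn1 by 292 bases. Sparc had 51.4, 47.4 and 50.3 CPM in KO JQ1 libraries against 68.0, 68.7 and 66.0 CPM in KO DMSO libraries, and 43.0, 41.4 and 38.3 CPM in WT JQ1 libraries against 57.9, 63.2 and 53.6 CPM in WT DMSO libraries. It fell by 0.45 in KO (SE 0.0604, adjusted p = 2.5e-05) and fell by 0.51 in WT (SE 0.0616, adjusted p = 1.03e-05), less than Fn1.

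Dpt (dermatopontin, a small matrix protein that binds decorin) had 0.581, 0.821 and 0.867 CPM in KO JQ1 libraries against 4.4, 3.71 and 3.39 CPM in KO DMSO libraries, and 0.462, 0.631 and 0.514 CPM in WT JQ1 libraries against 2.17, 2.47 and 1.93 CPM in WT DMSO libraries. The groups were far apart, with a log2 change of -2.32 in KO (SE 0.17, adjusted p = 9.14e-08) and -1.96 in WT (SE 0.19, adjusted p = 1.28e-06). Postn (periostin) had 0.581, 0.252 and 0.359 CPM in KO JQ1 libraries against 1.69, 0.975 and 0.957 CPM in KO DMSO libraries, and 0.308, 0.3 and 0.514 CPM in WT JQ1 libraries against 0.908, 1.26 and 1.13 CPM in WT DMSO libraries. It fell by 1.69 in KO (adjusted p = 0.000385) and fell by 1.73 in WT (adjusted p = 0.000503).

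Among the leucine-rich proteoglycans, Lum and Ogn fell in both genotypes. Lum had 0.0528, 0.0795 and 0.0897 CPM in KO JQ1 libraries against 0.382, 0.34 and 0.405 CPM in KO DMSO libraries, and 0.135, 0.146 and 0.187 CPM in WT JQ1 libraries against 0.615, 1.0 and 0.495 CPM in WT DMSO libraries. Its log2 change was -2.29 in KO (adjusted p = 0.000173) and -2.24 in WT (adjusted p = 2.62e-05). Ogn had 0.369, 0.0795 and 0.0299 CPM in KO JQ1 libraries against 0.745, 0.511 and 0.515 CPM in KO DMSO libraries, and 0.0577, 0.0384 and 0.0934 CPM in WT JQ1 libraries against 0.44, 0.579 and 0.495 CPM in WT DMSO libraries, so that KO JQ1 replicate 1 lay well above the other JQ1 libraries. It fell by 2.0 in KO (adjusted p = 0.00179) and fell by 3.29 in WT (adjusted p = 0.000243). Bgn had 0.158, 0.132 and 0.15 CPM in KO JQ1 libraries against 0.327, 0.139 and 0.442 CPM in KO DMSO libraries, and 0.0769, 0.154 and 0.14 CPM in WT JQ1 libraries against 0.0879, 0.421 and 0.55 CPM in WT DMSO libraries, with overlap in both. It fell by 1.44 in WT (adjusted p = 0.0357), a call lost with limma-voom (0.117) and when WT DMSO replicate 2 (0.115) or replicate 3 (0.211) or WT JQ1 replicate 1 (0.108), replicate 2 (0.0597) or replicate 3 (0.0532) was left out, and its log2 change in KO was -1.03 (adjusted p = 0.118). Dcn fell by 0.76 in WT (SE 0.194, adjusted p = 0.00406), and its log2 change in KO was -0.41 (SE 0.208, adjusted p = 0.105). The KO adjusted p of Dcn was 0.00298 with the replicate number as a block and 5.83e-05 with the block by culture. Its levels follow with the genotype comparison.

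The 8 members that did not pass the filter had at most 18 reads in a library. Col6a6, a type VI chain, had 0, 0 and 0 reads in KO JQ1 libraries against 2, 3 and 5 in KO DMSO libraries, and 0, 1 and 0 reads in WT JQ1 libraries against 4, 6 and 4 in WT DMSO libraries. Col17a1, the transmembrane collagen of hemidesmosomes, had 2, 0 and 1 reads in KO JQ1 libraries against 10, 12 and 8 in KO DMSO libraries. Col9a2 had 2, 3 and 0 reads in KO JQ1 libraries against 8, 6 and 18 in KO DMSO libraries. In the fit with no filter these 3 passed as lower in JQ1 in both genotypes, with adjusted p of 0.00897 for Col6a6, 0.00198 for Col17a1 and 0.00609 for Col9a2 in KO. Col24a1, Col10a1, Col8a1, Col8a2 and Col4a3 had 0 to 15 reads per library, and their change was not detectable at this depth.

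Promoters are shown for genes with large decreases (Col6a3 and Dpt), for the gene called higher (Col7a1), and for members called between genotypes (Col3a1 and Col4a5). The calls of Col7a1 and Col3a1 were lost under several alternatives, which are given with these genes. Each is the 250 bases before the annotated RefSeq start in GRCm38.p6, 5′ to 3′ on the gene's strand: chr1:90843972-90844221 (minus strand) for Col6a3, chr1:164796413-164796662 (plus) for Dpt, chr9:108953336-108953585 (plus) for Col7a1, chr1:45311288-45311537 (plus) for Col3a1 and chrX:141475169-141475418 (plus) for Col4a5. Capitals mark the letters of a TATA box (TATAAA), of a CCAAT box (its name) and of a GC box (GGGCGG), on either strand.
Col6a3: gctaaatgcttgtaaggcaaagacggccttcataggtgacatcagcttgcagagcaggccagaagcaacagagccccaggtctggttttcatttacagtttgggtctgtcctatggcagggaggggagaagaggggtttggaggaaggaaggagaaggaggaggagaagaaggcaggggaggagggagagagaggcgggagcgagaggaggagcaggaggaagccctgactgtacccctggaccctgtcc
Dpt: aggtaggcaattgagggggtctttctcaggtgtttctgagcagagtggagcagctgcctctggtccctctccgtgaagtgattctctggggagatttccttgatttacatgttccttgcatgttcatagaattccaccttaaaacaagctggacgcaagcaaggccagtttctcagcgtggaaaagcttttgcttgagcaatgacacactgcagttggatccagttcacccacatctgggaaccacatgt
Col7a1: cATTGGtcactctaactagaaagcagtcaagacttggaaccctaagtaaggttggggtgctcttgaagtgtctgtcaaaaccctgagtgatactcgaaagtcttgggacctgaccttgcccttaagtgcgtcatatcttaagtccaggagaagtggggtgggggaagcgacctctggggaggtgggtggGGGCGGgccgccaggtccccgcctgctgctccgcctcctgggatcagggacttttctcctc
Col3a1: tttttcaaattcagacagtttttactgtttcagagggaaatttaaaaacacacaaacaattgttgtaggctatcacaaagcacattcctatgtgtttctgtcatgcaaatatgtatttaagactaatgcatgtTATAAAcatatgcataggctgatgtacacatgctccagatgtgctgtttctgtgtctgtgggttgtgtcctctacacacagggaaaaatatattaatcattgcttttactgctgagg
Col4a5: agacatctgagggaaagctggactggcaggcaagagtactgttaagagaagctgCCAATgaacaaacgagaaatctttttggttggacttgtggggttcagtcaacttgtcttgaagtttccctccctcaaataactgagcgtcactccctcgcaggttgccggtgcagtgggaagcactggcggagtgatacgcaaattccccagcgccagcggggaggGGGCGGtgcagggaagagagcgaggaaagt
The windows of Col6a3 and Dpt held none of the 3 motifs, that of Col3a1 held TATAAA, and those of Col7a1 and Col4a5 held CCAAT and GGGCGG. Of the 51 members, 40 were matched in the RefSeq table, with 44 starts. TATAAA was in 15.9% of their windows against 12.4% of all 32851, CCAAT in 29.5% against 33.8%, and GGGCGG in 52.3% against 32.7%. These matches are a description of letters and were not tested.

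Genes that make, process and bind collagen were read from lists of related genes, beside the 29.4% of all genes that fell and 27.7% that rose in KO and the 29.3% that fell and 25.9% that rose in WT. Of 11 genes for propeptide removal and crosslinking, 8 fell in KO and 9 in WT with JQ1, and none rose in either. They included Lox, the crosslinking enzyme lysyl oxidase (-2.16 in KO, -2.21 in WT), and Adamts2, the procollagen N-proteinase (-1.01 in KO, -0.75 in WT). Of 13 collagen and fibronectin receptors 9 fell and 1 rose in each genotype, with the discoidin receptor Ddr2 at -2.69 in both and Gpr56, the receptor for type III collagen, at -1.11 in KO and -1.04 in WT. The enzymes of collagen biosynthesis were split: 9 of 22 fell and 8 rose in KO, and 8 fell and 7 rose in WT. P4ha1, a prolyl hydroxylase subunit, rose by 0.82 in KO and 0.85 in WT, and Plod1, a lysyl hydroxylase, rose by 0.74 in KO and 0.77 in WT. Fkbp10, a procollagen chaperone, was at -1.78 in KO and -1.63 in WT, and Creb3l1, a transcription factor for collagen genes, was at -1.61 in KO and -1.65 in WT.

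Other matrix lists were read beside the same shares. All 6 tested proteoglycans of the leucine-rich family beyond the members fell in both genotypes (Podn was at -2.87 in KO and -2.76 in WT), as did all 11 tested genes of elastic fibres and microfibrils (elastin, Eln, was at -2.02 in KO and -1.45 in WT). Of 16 laminin, nidogen and perlecan genes 11 fell and 1 rose in each genotype: Lama2 was at -1.99 in KO and -2.1 in WT, and Lamc1 rose by 0.49 in KO and 0.62 in WT. Of 12 SPARC relatives and matricellular genes 8 fell in each, and of 11 proteases and inhibitors 5 fell in KO and 7 in WT. The TGF-β pathway, an inducer of collagen genes in fibroblasts, was mixed, with 6 of 16 lower and 2 higher in KO, and 5 lower and 3 higher in WT.

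Markers of other cell types were counted beside the same shares, with 57.1% of all genes called in KO and 55.1% in WT. Of 16 fibroblast markers tested, 11 fell and 1 rose in KO, and 9 fell and 1 rose in WT. The summed level of the fibroblast list was 115 to 141 CPM in KO JQ1 libraries and 121 to 133 CPM in WT JQ1 libraries, against 288 to 313 CPM in KO DMSO and 241 to 271 CPM in WT DMSO libraries. It was made up mostly of Igfbp5, Fbln2 and Pdgfra, which other cell types also express. Islr was at -2.13 in KO and -2.18 in WT, and Fbln1 was at -1.11 in KO and -0.97 in WT. Fbln2 rose in both genotypes, by 0.96 in KO and 1.11 in WT. The pericyte list summed to 8.7 to 9.32 CPM in KO JQ1 and 6.72 to 7.6 CPM in WT JQ1, against 13.9 to 17.5 CPM in KO DMSO and 11.8 to 16.8 CPM in WT DMSO, and 3 of 7 fell in each genotype. The endothelial list summed to 7.48 to 9.74 CPM in KO JQ1 and 6.31 to 6.91 CPM in WT JQ1, against 6.65 to 8.03 CPM in KO DMSO and 5.55 to 6.94 CPM in WT DMSO, and of 4 tested 1 rose in KO, and 1 rose and 1 fell in WT.

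Astrocyte markers fell in 6 of 11 cases in KO and in 7 in WT, and their sum was 377 to 600 CPM in KO JQ1 and 581 to 792 CPM in WT JQ1, against 585 to 793 CPM in KO DMSO and 832 to 1010 CPM in WT DMSO. Microglial markers fell in 7 of 10 cases in KO and in 5 in WT. Of 11 oligodendrocyte lineage markers 4 fell in KO, and 5 fell and 1 rose in WT. Of 12 progenitor markers 3 rose and 1 fell in KO, and 2 rose and 1 fell in WT. Of 7 Cajal-Retzius markers 2 fell in KO, and 3 fell and 1 rose in WT. Neuronal markers were split, with 6 of 11 lower and 4 higher in KO and 6 lower and 3 higher in WT. The part of a change in cell make-up in the fall of the collagen and matrix genes was not tested.

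The genotypes differed in few members. In DMSO, 4 of 43 members were higher and 4 lower in KO than in WT neurons, beside 7.21% higher and 7.76% lower among the 15433 genes (15.0% in either direction). The median log2 change, KO over WT, was -0.05 for the members and -0.01 for the 15433 genes, so the members as a group stood near the background. The split depends on the scaling: with spike-in scaling, which shifts the median of the 15433 genes by -0.81, 0 members were higher and 27 lower, beside 0.0259% of genes higher and 77.7% lower. Without the KO libraries of replicate 3, 2 were higher and 5 lower, beside 9.42% of genes higher and 10.8% lower. Leaving out single libraries gave 3 to 7 calls.

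**Figure D3:**
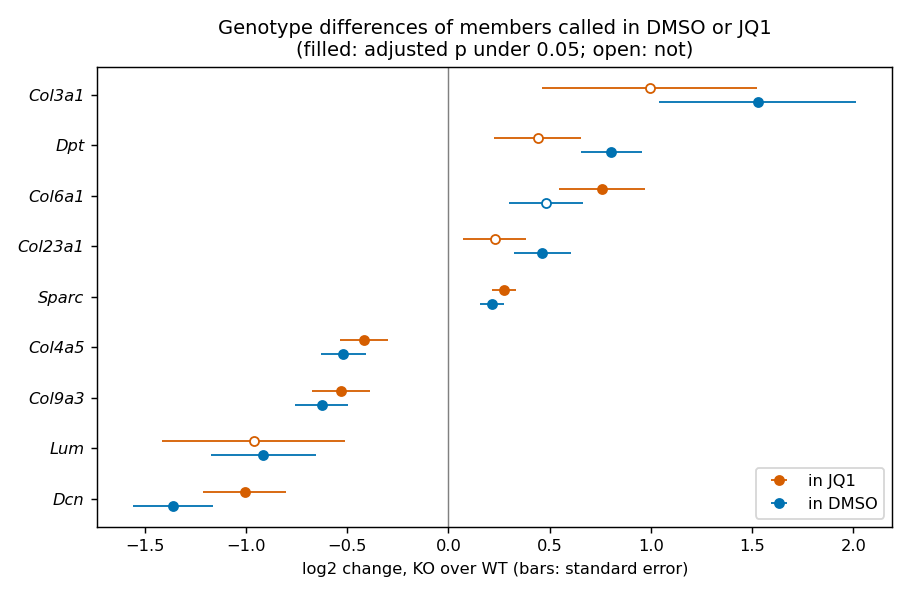
Log2 change, KO over WT, of the 9 members called in JQ1 or in DMSO, with JQ1 drawn above DMSO; bars are standard errors, filled points passed an adjusted p under 0.05 and open points did not. Dcn, Lum, Col9a3 and Col4a5 lie below 0 in both treatments and the other 5 lie above 0 in both. JQ1 and DMSO libraries of the same number may share a culture, so the treatments may not be independent observations of the genotype.

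Dcn, the proteoglycan decorin that binds collagen fibrils and TGF-β, gave the largest decrease in KO. It had 7.74, 13.1 and 11.9 CPM in KO DMSO libraries against 24.1, 32.1 and 27.7 CPM in WT DMSO libraries, with no overlap. The log2 change was -1.36 (SE 0.197, adjusted p = 0.00136). With JQ1 it had 5.59, 9.64 and 9.09 CPM in KO libraries against 14.1, 19.3 and 15.4 CPM in WT libraries, again with no overlap, and a log2 change of -1.01 (SE 0.206, adjusted p = 0.00971; 0.0628 without WT JQ1 replicate 2). Lum, the next gene on chromosome 10 in RefSeq order, fell by 0.92 in KO DMSO libraries (SE 0.259, adjusted p = 0.0309), with the levels given above, and these groups did not overlap. Lum's call was lost without KO DMSO replicate 1 (0.0945) or replicate 2 (0.104) and without WT DMSO replicate 1 (0.0555) or replicate 2 (0.215). It was also lost in a fit to the KO DMSO and WT DMSO libraries alone (0.0593), and its log2 change in JQ1 was -0.96 (adjusted p = 0.195). Kera, the next proteoglycan gene of this cluster, differed the other way. It had 0.818, 1.36 and 0.976 CPM in KO DMSO libraries against 0.41, 0.29 and 0.385 CPM in WT DMSO libraries, a log2 change of 1.55 (SE 0.336, adjusted p = 0.00941). In JQ1 it was higher in KO by 2.15 (SE 0.501, adjusted p = 0.0182). That value rests on few reads, at 0.132, 0.384 and 0.449 CPM in KO JQ1 libraries against 0.0769, 0.0846 and 0 CPM in WT JQ1 libraries. Epyc, the fourth of the cluster, did not pass in DMSO (0.06) or in JQ1 (0.44).

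Col9a3 and Col4a5 were lower in KO neurons. Col9a3, a chain of type IX collagen, had 3.78, 4.56 and 5.14 CPM in KO DMSO libraries against 6.18, 7.37 and 7.23 CPM in WT DMSO libraries, without overlap, and a log2 change of -0.63 (SE 0.132, adjusted p = 0.00839). Tcfl5, on the other strand, overlaps its exons by 234 bases. Col4a5, which lies on the X chromosome beside Col4a6, had 5.69, 7.61 and 7.12 CPM in KO DMSO libraries against 9.61, 9.63 and 10.1 CPM in WT DMSO libraries, without overlap. Its log2 change was -0.52 (SE 0.112, adjusted p = 0.00924; 0.0517 without KO DMSO replicate 1). Col4a6, its neighbour, did not pass (-0.37, adjusted p = 0.207).

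Sparc, Dpt, Col23a1 and Col3a1 were higher in KO neurons. Sparc was higher in each KO DMSO library than in any WT DMSO library. Its log2 change was 0.21 (SE 0.0604, adjusted p = 0.0301), a call lost without KO DMSO replicate 1 (0.077) or replicate 2 (0.0738) and without WT DMSO replicate 1 (0.0805) or replicate 3 (0.0985). With spike-in scaling it was at -0.60 (adjusted p = 0.0591), Col23a1 at -0.35 (0.262) and Dpt at -0.04 (0.908), so their direction depends on the scaling. The amount of spike-in added to each sample is not given. KO DMSO libraries had 187296, 107995 and 129889 spike-in counts beside 53564043, 64000804 and 53174615 gene counts. The spike-in share thus varied within this group, which limits that scaling. Dpt was higher by 0.81 (SE 0.151, adjusted p = 0.00477), without overlap of the levels given above. Col23a1 was higher by 0.46 (SE 0.141, adjusted p = 0.0407), and its adjusted p was 0.0602 to 0.132 when any 1 library was left out. Col3a1 was higher by 1.53 (SE 0.487, adjusted p = 0.0486) at levels of 1.33, 0.48 and 0.626 CPM in KO DMSO libraries against 0.234, 0.263 and 0.33 CPM in WT DMSO libraries. The groups did not overlap, but KO DMSO replicate 1 was far above the other 2 and without it the log2 change was 1.0 (adjusted p = 0.2). With spike-in scaling it was 0.61 (adjusted p = 0.189), and without both KO libraries of replicate 3 the adjusted p was 0.0512. The call was also lost without WT DMSO replicate 1 (0.13), replicate 2 (0.133) or replicate 3 (0.0897) and with limma-voom (0.0801). Col1a1 (0.98, adjusted p = 0.0804) and Col1a2 (1.34, adjusted p = 0.0634), the chains of type I collagen, did not pass.

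**Figure D4:**
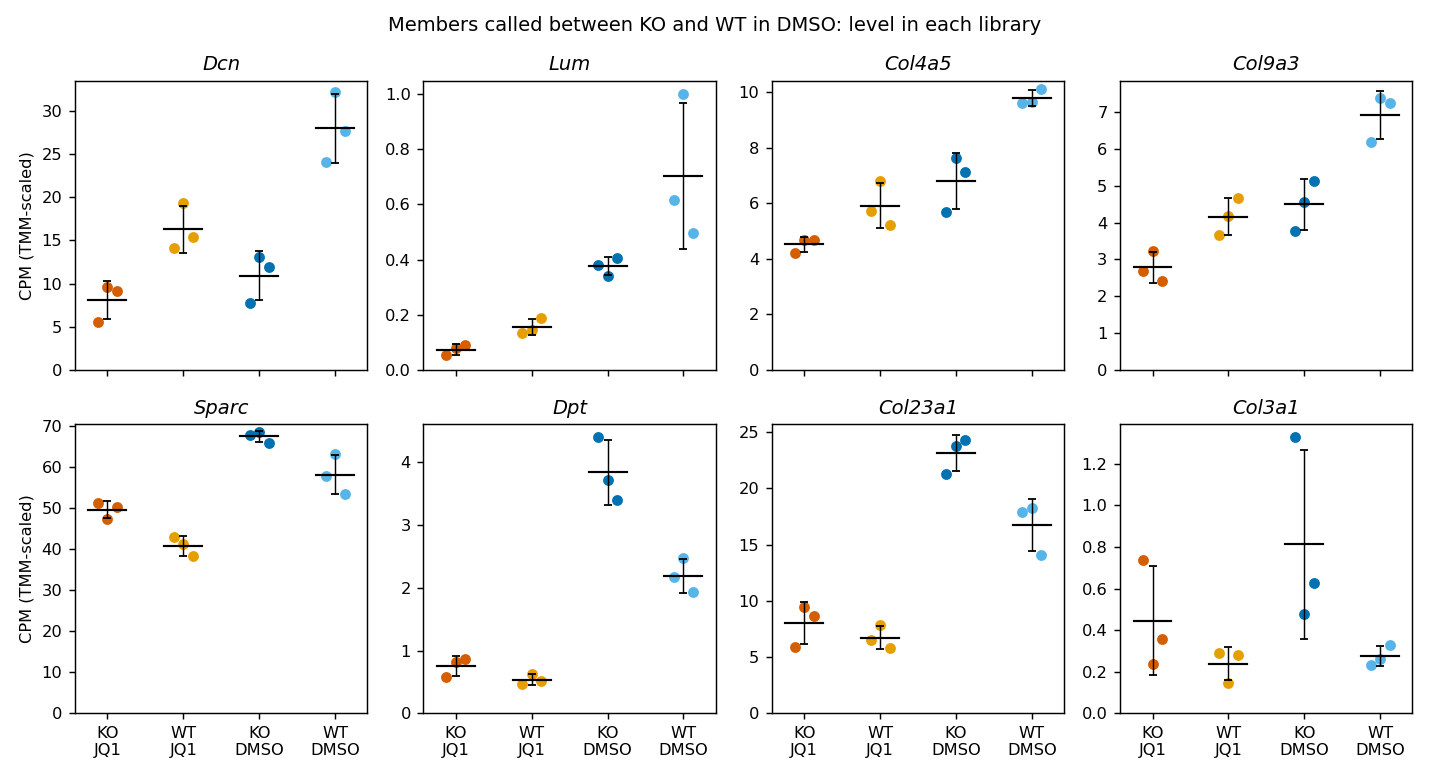
Level of the 8 members called between KO and WT neurons in DMSO, in TMM-scaled CPM on linear axes that start at 0, for KO JQ1, WT JQ1, KO DMSO and WT DMSO; points are libraries, lines are means and bars are SD (n = 3). Dcn lies at 7.74 to 13.1 CPM in KO DMSO and 24.1 to 32.1 CPM in WT DMSO libraries, and 1 of 3 KO DMSO libraries carries most of the Col3a1 difference.

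With JQ1, 2 members were higher and 3 lower in KO than in WT neurons, beside 4.85% higher and 4.13% lower among the 15433 genes (8.97% in either direction), and the medians were 0.02 for the members and -0.00 for the 15433 genes. Sparc was higher by 0.27 (SE 0.0615, adjusted p = 0.0152; 0.059 without KO JQ1 replicate 1 and 0.0514 without WT JQ1 replicate 2). Col6a1, a type VI chain, had 1.48, 1.42 and 1.08 CPM in KO JQ1 libraries against 0.827, 0.669 and 1.12 CPM in WT JQ1 libraries, which overlap. It was higher by 0.76 (SE 0.211, adjusted p = 0.0396), a call lost without KO JQ1 replicate 1 (0.112) or replicate 2 (0.122) and without WT JQ1 replicate 1 (0.101) or replicate 2 (0.246). Besides Dcn, Col9a3 was lower at 2.69, 3.24 and 2.42 CPM in KO JQ1 libraries against 3.65, 4.17 and 4.67 CPM in WT JQ1 libraries (log2 change -0.53, adjusted p = 0.0363). That call was lost without KO JQ1 replicate 1 (0.107) or replicate 3 (0.0725) and without WT JQ1 replicate 2 (0.129) or replicate 3 (0.0737). Col4a5 was lower at 4.22, 4.69 and 4.67 CPM in KO JQ1 libraries against 5.71, 6.8 and 5.23 CPM in WT JQ1 libraries (log2 change -0.42, adjusted p = 0.0444). It was lost without KO JQ1 replicate 1 (0.138), replicate 2 (0.084) or replicate 3 (0.0551) and without WT JQ1 replicate 1 (0.0813) or replicate 2 (0.242). In a fit to the KO JQ1 and WT JQ1 libraries alone, the adjusted p was 0.075 for Col6a1, 0.0589 for Col9a3 and 0.0784 for Col4a5. Without the KO libraries of replicate 3, 2 members were higher and 1 lower, beside 7.84% of genes higher and 7.96% lower, and the lower member was Dcn. With spike-in scaling, which shifts the median of the 15433 genes by -0.115, 0 members passed (0.0324% of genes higher, 0.117% lower), and the adjusted p of Dcn was 0.169.

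The related lists showed few genotype differences. In DMSO, Nid1 (1.03), Hspg2 (0.49) and Agrn (0.24) were higher in KO among 16 laminin, nidogen and perlecan genes. In JQ1, Nid1 (1.05) and Agrn (0.19) were. Of the biosynthesis enzymes, Glt25d2, a collagen galactosyltransferase, was lower in KO in DMSO (-0.61) and in JQ1 (-0.44), and Ppib (-0.23) and Crtap (-0.48) were lower in JQ1. The integrin subunit Itgb5 was lower in both (-0.40 in DMSO, -0.44 in JQ1). None of the 11 crosslinking and 11 protease genes passed in either treatment. In DMSO 1 elastic fibre gene was higher (Fbn2, 0.27), 1 TGF-β pathway gene was higher and 1 lower, and 2 SPARC relatives were higher and 1 lower. In JQ1 no elastic fibre gene passed, 1 TGF-β pathway gene was lower, and 1 SPARC relative was higher and 1 lower.

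Cell type markers were compared between genotypes as well. In DMSO, 1 of 16 fibroblast markers was lower in KO (Prrx2, -0.58) and none of 7 pericyte markers passed. Log2 changes ran from -0.63 to 1.78 in the fibroblast list (9 higher, 7 lower) and from -0.63 to 3.22 in the pericyte list (4 higher, 3 lower). An unadjusted p under 0.05 (edgeR) was found for 7 and 3 of them, beside 4872 of 15433 genes. Acta2, of the pericyte list, had 0.139 to 1.36 CPM in KO DMSO libraries against 0.0293 to 0.132 CPM in WT DMSO libraries. Its KO range was wide in JQ1 as well, at 0.053 to 1.29 CPM against 0.0231 to 0.0769 CPM in WT, so KO libraries differed among themselves. Among the members, KO replicate 1 had the highest Col3a1, Postn and Ogn of the KO libraries in both treatments, and the lowest Dcn. The astrocyte list had 2 lower of 11, the progenitor list 4 lower of 12, and the Cajal-Retzius list 4 lower and 1 higher of 7. Called or not, 11 of 11 astrocyte and 11 of 12 progenitor markers had a negative log2 change, beside 8192 of 15433 genes. Their medians were -0.28 and -0.39, and 4 and 9 of them had an unadjusted p under 0.05 (edgeR). The astrocyte list summed to 585 to 793 CPM in KO DMSO and 832 to 1010 CPM in WT DMSO libraries, without overlap. Neuronal markers were higher in 5 cases and lower in 1, Egfl7 was higher among 4 endothelial markers, and no microglial or oligodendrocyte marker passed. In JQ1, no fibroblast, endothelial, microglial or oligodendrocyte marker passed, 1 pericyte marker was higher (Tagln, 0.69), 1 astrocyte and 4 progenitor markers were lower, 4 Cajal-Retzius markers were lower and 1 higher, and 2 neuronal markers were higher. Log2 changes in JQ1 were negative for 10 of 11 astrocyte and 11 of 12 progenitor markers, beside 7885 of 15433 genes. The part of these lists in the lower Dcn, Col9a3 and Col4a5 of KO neurons was not tested.

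The response to JQ1 did not differ detectably between the genotypes. No member passed the test of the difference of responses, KO minus WT, nor did any of the 15433 genes (0.0% called), and no member had an unadjusted p under 0.05 with edgeR, against 355 genes in all. DESeq2 and limma-voom called none either, with 0 and 1 members at an unadjusted p under 0.05. The differences ran from -1.62 to 1.29 on the log2 scale with a median of 0.05. With spike-in scaling, which shifts the median difference of all genes by 0.694, they ran from -1.09 to 1.93 with a median of 0.75, 5 members had an unadjusted p under 0.05 and the lowest adjusted p was 0.221. Without KO JQ1 replicate 1, 4 members had an unadjusted p under 0.05 and the lowest adjusted p was 0.999. The widest differences with TMM scaling belonged to genes with few reads, Col28a1 and Ogn.

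The authors' deposited table of KO against WT lists the 51 members, 21 of them with an adjusted p, and calls 12.9% of genes higher and 10.8% lower (23.8% in either direction). In the authors' deposited table Sparc (log2 0.21, adjusted p = 0.00647), Dpt (0.53, 0.000183) and Col23a1 (0.41, 7.32e-05) were higher in KO, and Dcn (-0.65, 5.95e-06), Col9a3 (-0.46, 0.000393) and Col4a5 (-0.40, 0.000724) were lower. These 6 were called in the same direction in the fit here, and Lum and Col3a1 have no adjusted p in the authors' deposited table. Only directions were compared, since the estimates are not alike in size (Dcn was at -1.36 here). The standard error of the low gene Col4a3 was 0.0567 there against 0.731 in the fit here with no filter.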

How the data were processed

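RNA from neurons was sequenced as 75 bp single reads, per the labels' protocols. Per the submitters' processing notes, TopHat2 2.1.0, SAMtools 0.1.19, HTSeq 0.6.1, DESeq2 and DESeq were used with the mm9 genome. Neither labels nor notes state the strand setting of the counting. The authors deposited raw read counts per gene for 12 libraries. They also deposited a DESeq2 table for KO against WT, with a mean signal, log2 fold changes with errors, a Wald score and p-values; its direction was read from Fmr1.

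The fit used edgeR 4.0.16 in R 4.3.3: filterByExpr at a minimum count of 10, TMM scaling, 1 mean per group, quasi-likelihood F tests and Benjamini-Hochberg adjustment over 15433 genes, with an adjusted p under 0.05 as a call. The 92 spike-in sequences were left out of library sizes. Standard errors come from the quasi-likelihood statistic, and CPM per kb uses GENCODE M21 exon lengths. DESeq2 1.42.0 and limma 3.58.1 (voom) served as alternatives, beside other scalings, filters, blocks and left-out libraries. The fit was also run on simulated counts drawn independently for each library, without pairing. The outcome is not given here, and no result rests on it. Intervals of libraries reflect the spread of replicates, and low genes are limited by depth.

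The members and lists were chosen with earlier results of these data known. Values per library are given for 13 fixed members and for called members of smallest adjusted p, up to 10 per comparison, and of other lists up to 4 called genes per comparison are named; for genes moving little or with few reads values are shortened. Correlations of deviations between libraries of the same number were 0.21 to 0.29 for JQ1 against DMSO in KO, 0.094 to 0.16 in WT, -0.18 to 0.011 for genotype in DMSO and -0.016 to 0.12 in JQ1. Only the KO treatment pairs all exceeded 0.1, and the numbers were taken to pair libraries there. In WT as well as in KO, each DMSO library correlated best with the JQ1 library of its own number. The main fit used 1 mean per group and left this pairing out of its JQ1 tests. Fits with a block are given as alternatives. RefSeq promoters are from GRCm38.p6.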

Additional observations from a re-analysis of the deposited data

How the results depend on the processing

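Of 1192 recalculated values for 77 called changes of members, 1088 kept their direction and call, 101 lost the call and 3 reversed. The 77 were 8 for KO against WT in DMSO, 5 in JQ1, and 32 for JQ1 against DMSO in each genotype. The pooled values thus describe mainly the JQ1 changes, and several genotype calls were less stable, as given with these genes. The filter at 50 counts gave 57 values, since members it removed were not counted as lost. The 3 reversals came with spike-in scaling of KO against WT in DMSO: Sparc at -0.60, Dpt at -0.04 and Col23a1 at -0.35. That scaling gave 27 called members there against 8, and 0 against 5 in JQ1; the cause was not tested. A fit to the 2 groups alone gave 2 called members for KO against WT in JQ1, and leaving out both KO libraries of replicate 3 gave 3. Leaving out 1 library gave 3 to 7 members for KO against WT in DMSO, 0 to 4 in JQ1, 29 to 34 for JQ1 in KO, 30 to 32 for JQ1 in WT and 0 for the difference of responses. The counts for JQ1 against DMSO stayed within 1.5 times under each alternative, at 22 to 38 in KO and 24 to 36 in WT. With the replicate number as a block, 8 members were called for KO against WT in DMSO, 5 in JQ1, 34 for JQ1 in KO and 31 in WT; it ended the calls of Col6a4 in KO and Col7a1 in WT, added calls of Dcn, Col3a1 and Col25a1 in KO, and changed no other call. A block by culture, chosen after seeing the data, gave 35 members for JQ1 in KO and 34 in WT. It added Col11a2 as higher in both genotypes. As lower it added Dcn, Col3a1 and Col25a1 in KO and Col27a1 in WT, and it ended the call of Col6a4 in KO. DESeq2 gave no adjusted p for Lum and Col3a1 in KO against WT in DMSO. Genes under about 1 CPM rest on few reads, and their values are limited by depth.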
